A study of Homo sapiens with 24 samples.

Results

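Cells expressing the H133W mutant of SIRT6 were compared with cells carrying the empty vector, both stimulated with TNFα. The comparison holds the 3 arrays labelled as transfected with H133W mutant sirtuin 6 plus TNFα and the 3 labelled pCDNA3 plus TNFα, chosen by these labels alone, of 24 arrays in the series, and it takes in all 54675 probe sets of each array. HEK293 is an established human embryonic kidney line. The H133W cells received a pcDNA3 plasmid that encodes Flag-tagged SIRT6 with the H133W change, which removes the deacetylase activity, and the empty vector cells received pcDNA3 alone. Both were transfected for 24 h with a lipid reagent and then given TNFα at 10 ng/ml, for 4 h by the study's methods and for 1 h by the series description. The transfection was transient and only some of the cells take up plasmid, so a change in fewer cells and a smaller change in every cell cannot be told apart. The resident SIRT6 of HEK293 cells is present in every group. For comparison only, use was made of wild type SIRT6 with TNFα, H133W or empty vector without TNFα, and untransfected cells without and with TNFα, with 3 arrays per condition. The replicates are labelled as biological, and with 3 per condition the values have limited precision.

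SIRT6 is a nuclear sirtuin, an NAD-dependent enzyme that removes acetyl groups from lysines of histone H3 and is known for its place in genome stability, glucose metabolism and the restraint of NFκB target genes. TNFα binds its receptor on HEK293 cells and drives NFκB into the nucleus, where it raises chemokines, adhesion molecules and its own inhibitors. Overexpressed proteins, active or not, also load the chaperone systems of the cell. Heat shock factor raises chaperones through heat shock elements, and ATF4, the effector of the integrated stress response, raises genes of amino acid supply and cell stress. A change is called here where its fold exceeds 1.5 and its adjusted p is below 0.05. Values are on the log2 scale, so a difference of 1 is a factor of 2, and every difference without further description is H133W with TNFα minus empty vector with TNFα.

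Replicate 3 of the H133W cells with TNFα stood apart from the other arrays. Control probe sets read β-actin and GAPDH at the 3′ and the 5′ end of the transcript, and the difference between the ends grows as RNA degrades. For β-actin this difference was 3.03 on replicate 3, against 1.5 to 1.79 on the other 5 arrays compared and 1.33 to 2.05 on the other 23 arrays of the series. For GAPDH it was 0.53, against 0.187 to 0.347 on the other 23. The median SD between the 3 H133W arrays was 0.163 over all probe sets and 0.0692 between replicates 1 and 2, beside 0.0825 between the 3 empty vector arrays. Each result is therefore given with and without replicate 3, and whether the state of its RNA produced any given change was not tested.

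The study reported both SIRT6 proteins, wild type and H133W, on Western blots of extracts from the transfected cells, probed with anti-SIRT6 or anti-Flag. On the arrays, SIRT6 is read by a pair of probe sets, and neither passed as called in the H133W cells. The brighter of them read 9.58, 9.60 and 9.75 in the H133W cells and 8.80, 8.54 and 9.19 in the empty vector cells, a difference of 0.80 (adjusted p = 0.12). The other read 8.55, 8.53 and 8.94 against 8.21, 8.23 and 8.16, a difference of 0.48 with an adjusted p of 0.00733 that stayed under the fold threshold. In both, every H133W array was above every empty vector array. The share of all probe sets that separate in this way is not given here. With so few arrays such separation can also arise by chance, so it is not taken as evidence of a rise. Without TNFα the brighter one was called, at 1.15, and the other differed by 0.08. The probe sets can also read the cells' own SIRT6, and whether they cover the part of the transcript carried by the plasmid is not given in the sources used here.

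With TNFα, 574 probe sets were upregulated and 189 downregulated by H133W, which is 1.05% and 0.346% of those tested. By unadjusted p alone 11167 of the 54675 probe sets lay under 0.05, both directions together. That is the baseline for the list counts at this level below, and its split by direction is not given here. Without replicate 3 the counts were 415 and 47, or 0.759% and 0.086%. Of the rises, 322 (56.1%) were called both ways, whereas of the falls only 27 (14.3%) were. The rises called both ways belong to 229 genes and the falls to 17. The 3 H133W arrays lay apart from the 3 empty vector arrays in 566 (98.6%) of the 574 rises and 184 (97.4%) of the 189 falls. Lack of overlap in a called gene is therefore usual among the calls and adds little to them. The median rise of the 322 was 0.86 with and 0.78 without replicate 3. The 252 rises and 162 falls called only with replicate 3 had medians of 0.67 and −0.69, which became 0.49 and −0.46 without it. Replicate 3 was the array farthest from the empty vector arrays in 250 (99.2%) of these 252 rises and in 158 (97.5%) of these 162 falls. These sets were selected for losing the call without replicate 3, so this and the smaller medians follow largely from the selection. In the calls made both ways replicate 3 was the farthest in 55.0% of the rises and 51.9% of the falls. Over all probe sets it was the highest of the 3 H133W arrays in 48.5% and the lowest in 36.7%. Of 90 rises over 2-fold, 84 were also called without replicate 3. Of 5 falls over 2-fold, 1 was. Every other left-out array changed the number of falls too, from 1191 without H133W + TNFα replicate 1 to 96 without empty vector + TNFα replicate 3, so the falls are given here gene by gene. In a fit on the 6 arrays alone, 81 probe sets were called and all of them were rises.

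**Figure D1:**
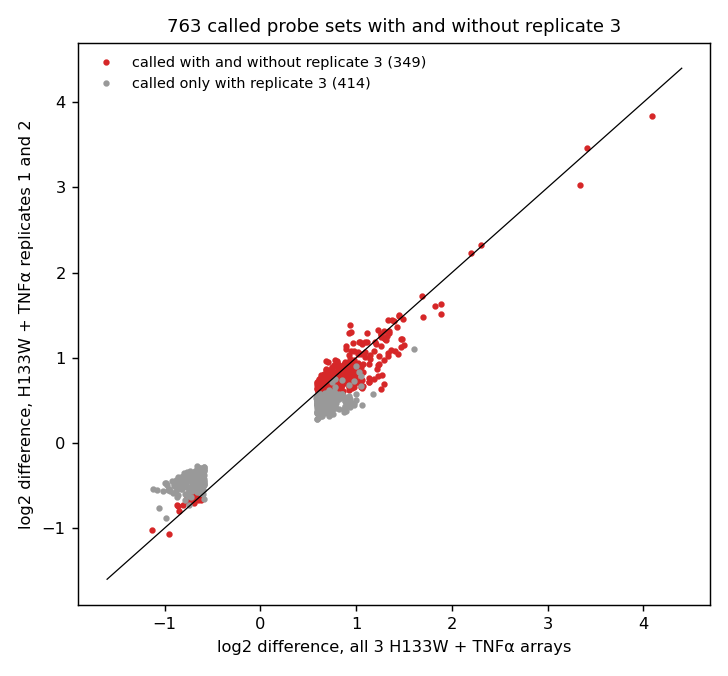
Log2 difference of each of the 763 called probe sets with all 3 H133W + TNFα arrays (horizontal) and with replicates 1 and 2 alone (vertical); red points were called both ways (349), grey points only with replicate 3 (414), and the line marks equal values. The grey points, selected for losing the call without replicate 3, lie nearer to 0 on the vertical axis than on the horizontal one. Most red points follow the line.

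Separate arrays of resting cells gave a view of the same mutant without TNFα. There H133W raised 384 probe sets (0.702%) and lowered 37 (0.0677%) against the empty vector. Of these, 228 rises were shared with the stimulated cells, 39.7% of the stimulated and 59.4% of the resting list. Only 5 falls were shared, 2.65% and 13.5% of the lists, and 0 probe sets were called in opposite directions. The rises called with and without replicate 3 were also called in resting cells in 201 of 322 cases (62.4%). Of the 252 rises called only with replicate 3, 27 (10.7%) were called at rest. A rise without TNFα was measured for 563 (98.1%) of the 574 stimulated rises and a fall for 164 (86.8%) of the 189 stimulated falls. The share of all probe sets with the same sign is not given here, so these percentages lack a baseline.

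**Figure D2:**
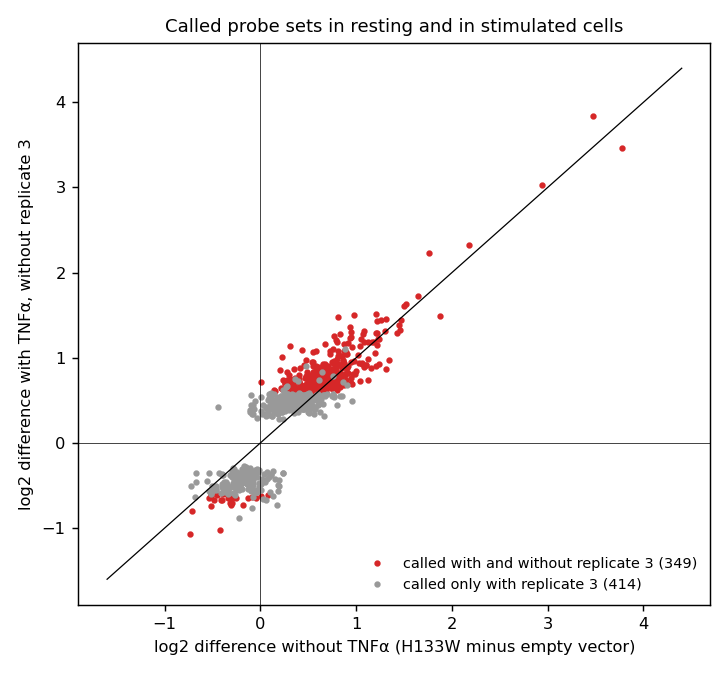
Log2 difference of the 763 called probe sets in resting cells (H133W minus empty vector, horizontal) and in TNFα-stimulated cells without replicate 3 (vertical); red points were called with and without replicate 3, grey points only with it, and the line marks equal values. The red rises run along the line up to HSPA6 and CRYAB, and the falls gather between 0 and −1.

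The largest rises were of heat shock proteins, the chaperones that hold or refold damaged protein. HSPA6, an inducible HSP70 that most unstressed cells hardly make, read 8.62, 8.70 and 9.41 in the H133W cells and 4.80, 4.69 and 4.98 in the empty vector cells. All 3 H133W arrays were far above all empty vector arrays, and replicate 3 was the highest. The rise was 4.09 ± 0.15 (SE), or 17-fold (adjusted p = 1.34e-12), and 3.84 without replicate 3. Another HSPA6 probe set, 117_at, rose by 3.33, or 3.03 without replicate 3. HSPA6 has a near-identical pseudogene, HSPA7, whose transcripts such probes may also read. Its promoter is printed because it holds a heat shock element, the binding sequence of heat shock factor, in the 250 bases before the start of transcription (RefSeq, GRCh38.p14, chr1:161524290-161524539, plus strand), with the match in capitals, 74 to 62 bases before the start.
HSPA6 promoter: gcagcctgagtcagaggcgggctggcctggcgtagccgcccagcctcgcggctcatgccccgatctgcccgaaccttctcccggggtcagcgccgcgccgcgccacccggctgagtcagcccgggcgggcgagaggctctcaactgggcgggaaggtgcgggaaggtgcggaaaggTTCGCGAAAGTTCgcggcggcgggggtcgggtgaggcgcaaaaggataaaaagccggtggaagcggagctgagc

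A heat shock element was sought as GAANNTTCNNGAA or TTCNNGAANNTTC, which together cover both strands and whose units may overlap within a longer run. It occurs in 155 of 35116 RefSeq starts (0.4414%). Of the called heat shock genes, 4 had an entry and HSPA6 alone a match, and of those not called 27 had an entry and 5 a match (HSP90AA1, HSP90AB1, HSPD1, DNAJB6 and CHORDC1). Counted by start, as the share above is, 1 of 6 (16.67%) of the called and 5 of 43 (11.63%) of the others matched. A match is a description of the letters and not a site shown to be used.

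Of 37 heat shock proteins and cytosolic chaperones measured, 5 rose and 0 fell, where 1.44% of all 19775 genes rose and 0.283% fell (1 probe set per gene). Without replicate 3, 4 rose, beside 0.971% and 0.0809% of all genes up and down. The same shares of all genes apply to each list below. The gene lists were chosen with earlier results of these data and the study's known, so their counts are not independent of those results. CRYAB, a small heat shock protein that keeps unfolded proteins soluble, read 7.49, 7.38 and 7.29 against 3.90, 3.93 and 4.09, a rise of 3.41 (10.6-fold, adjusted p = 1.16e-15) and of 3.46 without replicate 3. Its 3 H133W arrays lay close together and well clear of the empty vector arrays. The empty vector levels of CRYAB and HSPA6 lie under the log2 value of 5 taken here as dim, and since no detection calls were used it is not known whether they stand above background, so both folds are ratios of the RMA values. DNAJB1, the HSP40 partner of HSP70, was already bright at 11.10, 11.06 and 11.11 in the empty vector cells and read 12, 11.95 and 11.95 in the H133W cells, a rise of 0.87 (0.88 without replicate 3). ZFAND2A, an arsenite-inducible regulator of the proteasome, rose by 0.88 (0.84 without replicate 3). BAG3, the cochaperone that hands HSP70 clients to autophagy, read 9.59, 9.56 and 9.97 against 9.02, 9.03 and 9.02, a rise of 0.68. Without replicate 3 its difference was 0.55 (adjusted p = 0.00116), which is under the fold threshold.

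The 32 members not called ran from −0.30 for STIP1, the HSP70-HSP90 adaptor, to 0.61 for HSPB3, a muscle small heat shock protein. HSPH1, an HSP110 that recharges HSP70, differed by 0.49 (adjusted p = 0.00291), and the constitutive HSP90AA1 by 0.08 (adjusted p = 0.377). HSF1, the factor itself, differed by 0.17 (adjusted p = 0.554). The median over the 37 members was 0.090, or 0.050 without replicate 3, beside 0.0139 and −0.0182 over all genes. In resting cells HSPA6, CRYAB and ZFAND2A passed, by 3.48, 3.78 and 0.74, while DNAJB1 differed by 0.41 and BAG3 by 0.22 on these probe sets. Another DNAJB1 probe set was called with TNFα (1.06), without replicate 3 (1.17) and in resting cells (0.68).

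**Figure D3:**
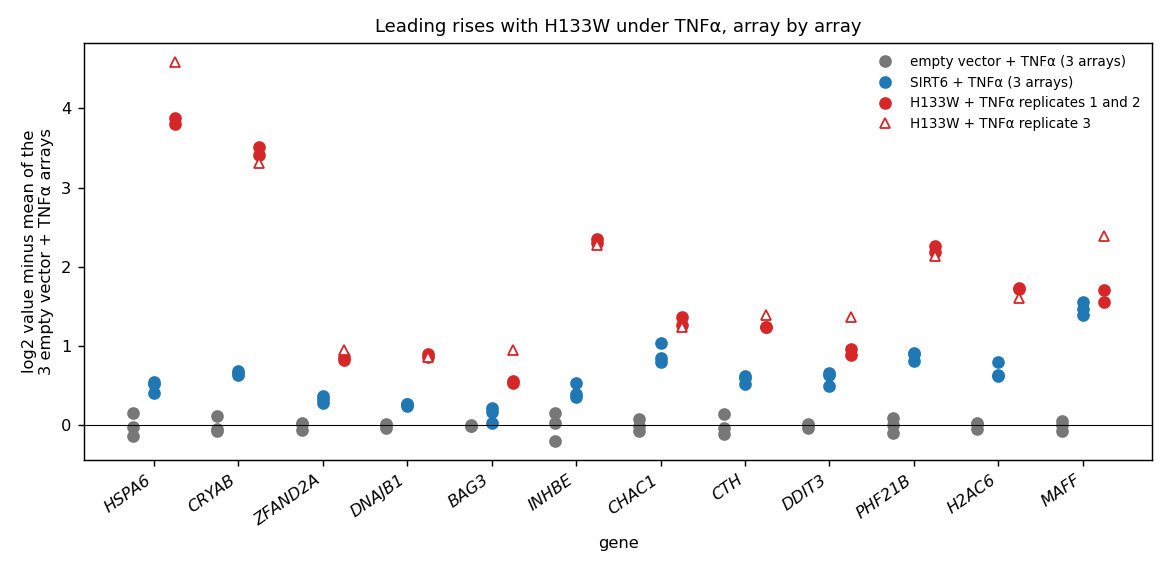
Log2 value minus the mean of the 3 empty vector + TNFα arrays for 12 genes that rose, each point 1 array: empty vector + TNFα (grey), SIRT6 + TNFα (blue), H133W + TNFα replicates 1 and 2 (red) and replicate 3 (open triangle). All H133W arrays lie above all empty vector arrays in the 12 genes, as they do in 98.6% of all called rises. Replicate 3 stands most clearly above the other H133W arrays in HSPA6, BAG3, DDIT3 and MAFF.

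Of 41 measured targets of ATF4 and the integrated stress response, 14 rose in the H133W cells and 0 fell, or 9 and 0 without replicate 3, and 38 of the 41 had a difference above 0. Their median was 0.27, or 0.28 without replicate 3, beside 0.0139 and −0.0182 over all genes. How many of all genes lay above 0 is not given here, so the count of 38 lacks a baseline. This list, like the others here, was chosen with the study's and earlier results of these data known, so its count is not independent of them. INHBE, a secreted inhibin subunit induced by cell stress, read 8.30, 8.25 and 8.23 against 5.99, 5.76 and 6.11, a rise of 2.31 ± 0.13 (SE), or 4.95-fold (adjusted p = 1.82e-09). The H133W arrays differed from each other by less than the empty vector arrays did. CHAC1, which breaks down glutathione, read 7.78, 7.88 and 7.76 against 6.51, 6.60 and 6.44 and rose by 1.29 (adjusted p = 3.28e-06). CTH, which makes cysteine from cystathionine, read 9.51, 9.51 and 9.67 against 8.42, 8.16 and 8.24 and rose by 1.29. DDIT3 (CHOP), the transcription factor of prolonged stress, read 8.4, 8.33 and 8.81 against 7.41, 7.44 and 7.46 and rose by 1.08, with replicate 3 the highest. Without replicate 3 these 4 rises were 2.32, 1.31, 1.24 and 0.93, all called.

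Further members were chosen for mention after their values were seen. ATF3, a stress-induced repressor, rose by 0.95, PPP1R15A (GADD34), which restores translation, by 0.99, SESN2, a leucine sensor, by 0.73, SLC3A2, the heavy chain of amino acid exchangers, by 1.04 and FGF21, a hormone of nutrient stress, by 1.07. All were called without replicate 3 as well, at 0.92, 0.90, 0.61, 0.71 and 0.83. The remaining rises, of TRIB3 (0.66), SLC43A1 (0.63), STC2 (0.71), NUPR1 (0.60) and JDP2 (0.62), lost the call without replicate 3, with differences of 0.53, 0.41, 0.53, 0.51 and 0.33, though another STC2 probe set rose by 0.78 and was called without replicate 3 (0.70). JDP2 also lost it without any single empty vector + TNFα array (0.56, 0.66 and 0.65 without replicates 1, 2 and 3). ATF4 itself differed by 0.04 (adjusted p = 0.674), and ASNS, asparagine synthetase, by 0.18 (adjusted p = 0.0432). In resting cells INHBE, PPP1R15A, ATF3, CHAC1, CTH and DDIT3 passed, by 2.18, 1.21, 1.10, 1.08, 0.93 and 0.81.

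The promoters of CHAC1, FGF21 and ATF3 are printed to show the CCAAT-enhancer-ATF element that ATF4 binds with a C/EBP partner, sought as TGATGNAA or, on the other strand, TTNCATCA, with the match in capitals. They are the 250 bases before RefSeq starts in GRCh38.p14, all on the plus strand: CHAC1 at chr15:40953221-40953470 (match 209 to 202 bases before the start), FGF21 at chr19:48755274-48755523 (54 to 47) and ATF3 at chr1:212565157-212565406 (191 to 184, the upstream window of 1 of 2 starts).
CHAC1 promoter: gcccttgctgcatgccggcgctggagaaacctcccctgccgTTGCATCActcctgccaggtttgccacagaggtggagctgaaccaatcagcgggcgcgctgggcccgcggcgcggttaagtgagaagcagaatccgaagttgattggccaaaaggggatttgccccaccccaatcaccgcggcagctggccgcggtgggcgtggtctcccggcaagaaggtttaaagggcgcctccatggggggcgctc
FGF21 promoter: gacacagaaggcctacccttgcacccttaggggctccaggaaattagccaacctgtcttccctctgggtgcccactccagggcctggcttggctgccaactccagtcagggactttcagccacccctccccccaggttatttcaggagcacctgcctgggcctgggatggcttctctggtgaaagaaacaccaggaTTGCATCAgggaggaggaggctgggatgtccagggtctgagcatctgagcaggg
ATF3 promoter: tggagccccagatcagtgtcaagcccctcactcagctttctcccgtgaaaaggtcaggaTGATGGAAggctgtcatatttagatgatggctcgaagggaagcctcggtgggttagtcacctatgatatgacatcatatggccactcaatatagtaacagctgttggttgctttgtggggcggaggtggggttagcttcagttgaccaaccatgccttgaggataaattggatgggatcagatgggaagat
The element occurs in 1104 of the 35116 starts (3.144%). Of the called members 12 had an entry and 4 a match (these and JDP2), and of those not called 22 had an entry and 4 a match (PPP1R15B, ASNS, SLC1A5 and CEBPG). Counted by start, 4 of 21 (19.05%) of the called and 4 of 34 (11.76%) of the others matched. None of the printed matches overlaps a heat shock element.

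Of 17 cytosolic aminoacyl-tRNA synthetases, which charge tRNAs and include many ATF4 targets, 0 were called on their brightest probe sets by limma or by a plain linear model and 6 were higher at an unadjusted p under 0.05. The largest difference was that of CARS1, the cysteinyl synthetase, at 0.54 (adjusted p = 0.000665), which passed at 0.59 without H133W + TNFα replicate 2. TARS1, the threonyl synthetase, rose by 0.76 (0.76 without replicate 3) on a dimmer probe set. Of 25 ER chaperones and unfolded protein response genes, 0 were called by either model on the brightest probe sets, and 4 were higher and 2 lower at an unadjusted p under 0.05. P4HB, protein disulfide isomerase, fell by 0.74 on a dimmer probe set that lost the call without replicate 3 (−0.40), and its brightest differed by −0.00. XBP1, the splicing-activated factor of that response, differed by 0.47 and ERN1, the kinase that splices it, by 0.31. The ER list had a median of −0.00 and the synthetases one of 0.11.

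Replication-dependent histone genes rose in 4 of 38 cases (10.5%), with and without replicate 3, and 0 fell, beside 1.44% and 0.283% of all genes. H2AC6, an H2A gene, read 10.06, 10.05 and 9.94 against 8.36, 8.28 and 8.34, a rise of 1.69 (3.23-fold, adjusted p = 6.64e-10). H4C8, an H4 gene, read 6.34, 5.98 and 6.03 against 4.69, 4.77 and 4.54, a rise of 1.45, and H3C6, an H3 gene, read 7.46, 7.71 and 7.73 against 6.38, 6.38 and 6.51, a rise of 1.21. H4C11 rose by 0.85. The groups did not overlap in any of the 4, which holds for 98.6% of all called rises and adds little. The rises without replicate 3 were 1.73, 1.5, 1.16 and 0.60. On these probe sets all 4 passed in resting cells too, by 1.65, 1.88, 0.87 and 0.68. Another H4C8 probe set rose by 1.04 (1.19 without replicate 3) and passed at rest by 0.80. Another H3C6 probe set rose by 0.59 (0.71 without replicate 3) but differed by only 0.01 at rest and was not called there. The genes of this family are near copies of each other, so a probe set may read several of them, and the 34 others ran from −0.44 to 0.47.

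Zinc finger genes named ZNF, most of which encode DNA-binding repressors of the KRAB type, rose in 36 of 466 cases (7.73%) and 0 fell. Of all genes 1.44% rose. Without replicate 3, 20 of the 466 rose, beside 0.971% of all genes. The median of the 466 was 0.12 both ways, beside 0.0139 over all genes and −0.0182 without replicate 3. Of the 466, 334 lay above 0, a count without a baseline, since that of all genes is not given here. ZNF418 read 7.26, 6.95 and 7.31 against 5.81, 5.82 and 5.91 and rose by 1.33 (1.26 without replicate 3). ZNF79 rose by 1.30 (1.22), ZNF211 by 1.18 (1.08) and ZNF473, which acts in histone mRNA processing, by 1.15 (1.03), where its other probe set differed by 0.18. These 4 also passed in resting cells, by 0.77, 1.06, 0.82 and 0.82. On chromosome 19, where the family lies in clusters, 23 of 220 ZNF genes rose (10.5%), elsewhere 13 of 246 (5.28%), and of other genes on chromosome 19 20 of 1100 (1.82%). Without replicate 3 these counts were 13, 7 and 12. Zinc finger genes share sequence, so some probe sets may read several members.

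Of 50 SR proteins and splicing regulators 5 (10%) rose, beside 1.44% of all genes, and 0 fell. Without replicate 3, 5 rose too, but not the same 5. ESRP1, the epithelial splicing regulator, read 5.59, 5.41 and 5.66 against 3.99, 3.94 and 4.69 and rose by 1.34 (1.29 without replicate 3). PTBP2, the neuronal polypyrimidine tract binder, rose by 0.83 (0.89), RSRC2, an SR-related protein, by 0.68 (0.72) and ZRSR2, a U12 splice site factor, by 0.61 (0.59), the last losing the call without empty vector + TNFα replicate 1 (0.53). CELF6, a brain splicing regulator, rose by 0.81 with all arrays only; its difference was 0.51 without replicate 3 and 0.73 (adjusted p = 0.0644) without empty vector + TNFα replicate 2. CCNL1, a cyclin of splicing kinases, rose by 0.61 (0.75) on a probe set that was also called in resting cells (0.76). Its brightest probe set differed by 0.56 and was not called with all arrays, but was called without replicate 3 (0.80) and without empty vector + TNFα replicate 2 (0.59) or 3 (0.59). With any probe set of a gene counted, 12 of the 50 rose.

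Of 11 spliced hosts of small nucleolar RNAs and noncoding RNAs near MYC, 3 rose, with and without replicate 3. PVT1, the noncoding neighbour of MYC, read 8.6, 8.62 and 8.29 against 7.13, 7.19 and 7.17 and rose by 1.34 (1.44 without replicate 3). SNHG17 rose by 0.83 (0.82) and ZFAS1 by 0.62 (0.60), both small nucleolar RNA hosts. None of 60 ribosomal protein genes was called by limma or the plain linear model, and 2 were higher and 0 lower at an unadjusted p under 0.05. By kind of gene, 16 of 497 pseudogenes rose (3.22%), 247 of 16520 protein-coding genes (1.5%) and 21 of 2718 noncoding genes (0.773%). Without replicate 3 these were 13, 164 and 15.

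Other leading rises came from varied genes. PHF21B, a PHD finger protein expressed in brain, read 7.69, 7.76 and 7.64 against 5.59, 5.4 and 5.51, a rise of 2.20 (4.58-fold) that was 2.23 without replicate 3. MAFF, a small MAF factor that pairs with NRF2, was read by a pair of probe sets, and the brighter read 7.70, 7.55 and 8.38 against 5.92, 6.00 and 6.05 and rose by 1.89 (1.63), the other by 1.01. CYP27B1, which makes active vitamin D, read 6.06, 6.10 and 7.17 against 4.53, 4.38 and 4.76 and rose by 1.89 (1.52). In both, replicate 3 was the highest array and the other H133W arrays were also clear of the empty vector arrays. INSM2, a zinc finger factor of endocrine cells, rose by 1.83 (1.61), PIWIL4, a protein of the piRNA pathway, by 1.70 (1.48), XRN1, the cytoplasmic 5′ exonuclease, by 1.5 (1.16), OVGP1, an oviduct glycoprotein, by 1.48 (1.22) and the pseudogene RPL32P3 by 1.44 (1.5). These 8 genes passed in resting cells too, by 0.81 to 1.77. A second, brighter XRN1 probe set was called as well, at 0.94 (0.75 without replicate 3), while the brightest probe sets of XRN1 and RPL32P3 differed by 0.12 and 0.16. SEPTIN7P14, a pseudogene, rose by 1.61 on a probe set that lost the call without replicate 3 (1.10, adjusted p = 0.0582), whereas 3 of its other probe sets rose by 1.47, 1.44 and 0.97, were called without replicate 3 too (1.12, 1.04 and 0.76) and passed in resting cells.

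Genes of cilia, neurons and excitable membranes were among the rises. Of 86 motile cilium genes 8 (9.30%) rose and 0 fell, beside 1.44% and 0.283% of all genes. Without replicate 3, 8 rose too, though not the same 8. ODAD4, a docking protein of axonemal dynein, read 7.28, 7.26 and 7.07 against 5.94, 5.77 and 5.80 and rose by 1.37 (1.44 without replicate 3). CFAP43, an axonemal protein, rose by 1.36 (1.09), DNAH17, a dynein heavy chain, by 1.07 (0.74) and RSPH9, a radial spoke protein, by 0.94 (0.80). RFX3, a transcription factor of ciliogenesis chosen after its values were seen, rose by 0.69 (0.81). Of 62 primary cilium genes 4 (6.45%) rose, and 2 without replicate 3, beside 1.44% and 0.971% of all genes. INTU, a planar polarity effector, rose by 0.87 (0.74) and TTC21A, a retrograde transport protein, by 0.86 (0.68). C2CD3 (0.69) and INPP5E (0.61), of the centriole and the ciliary membrane, lost the call at 0.40 and 0.44 without replicate 3, and at 0.68 (adjusted p = 0.058) and 0.56 without empty vector + TNFα replicate 1, and C2CD3 also at 0.66 (adjusted p = 0.0641) without empty vector + TNFα replicate 2.

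Of 47 potassium and calcium channel genes 7 (14.9%) rose and 1 (2.13%) fell, beside 1.44% and 0.283% of all genes. Without replicate 3, 5 rose and 0 fell. KCNMB3, a regulatory subunit of BK channels, read 6.07, 6.09 and 7.48 against 5.22, 5.28 and 5.34 and rose by 1.27 (0.80). CACNA2D3, a calcium channel subunit, rose by 0.99 (0.86) and KCNT2, a sodium-activated potassium channel, by 0.75 (0.68). TRPA1, the irritant receptor, fell by 0.94 with all arrays and lost the call without replicate 3 (−0.57) and without empty vector + TNFα replicate 1 (−0.87, adjusted p = 0.0607). Of 51 neural transcription factors 7 (13.7%) rose and 1 (1.96%) fell, or 4 and 0 without replicate 3. After INSM2 the largest were NR2E1, a neural stem cell factor, at 0.90 (0.90), OLIG2, of oligodendrocytes, at 0.80 (0.61; its dimmer probe set differed by 0.06), and NHLH1, a neuronal helix-loop-helix factor, at 0.76 (0.70). The fall was that of SOX11, of immature neurons, at −0.59, and it lost its call without replicate 3 (−0.28), without any single empty vector + TNFα array (−0.61, −0.61 and −0.54 without replicates 1, 2 and 3) and with the arrays centred (−0.57) or quantile normalized (−0.58).

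**Figure D4:**
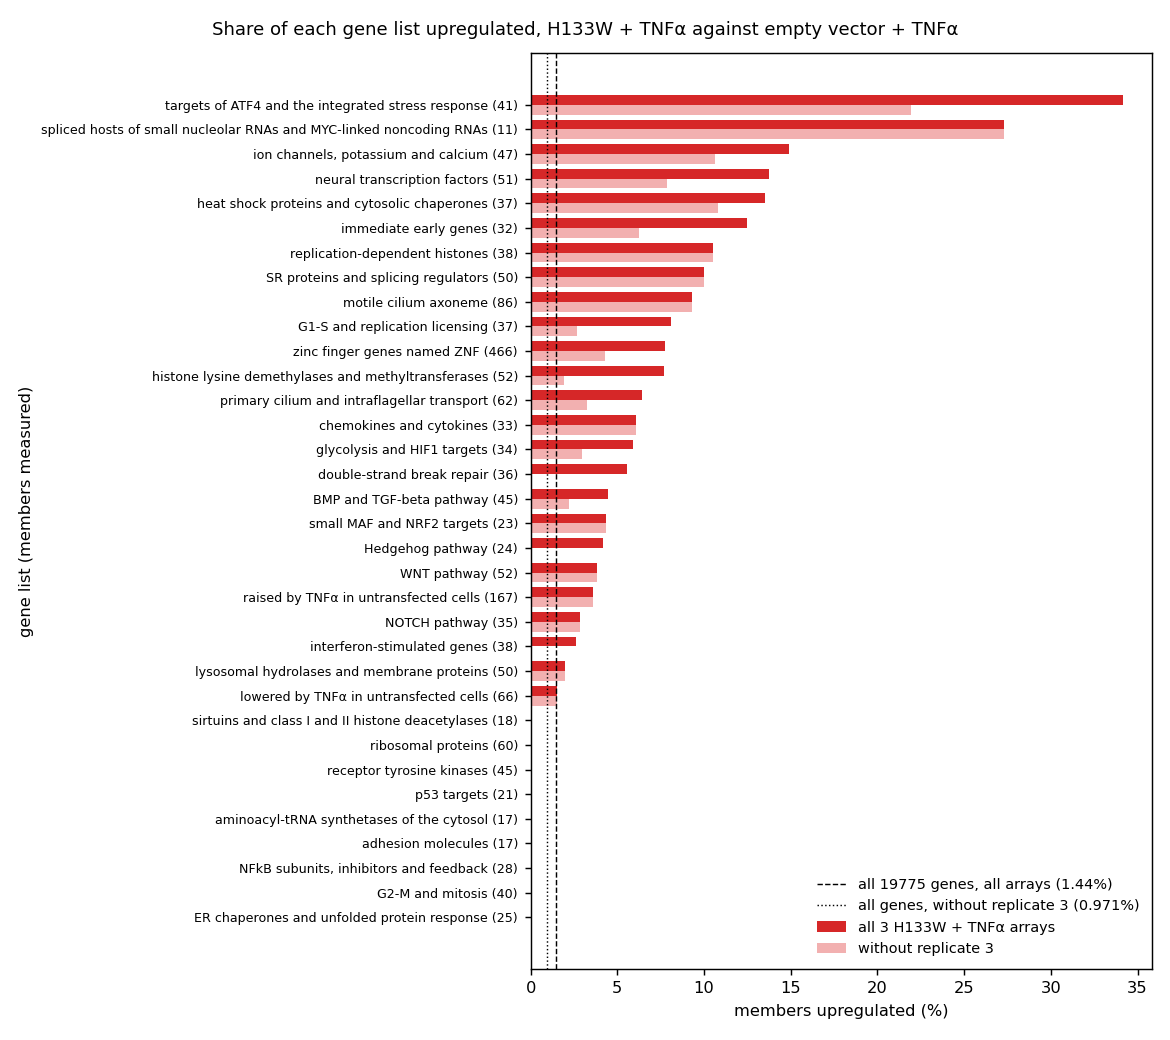
Share of the measured members of each gene list upregulated by H133W with TNFα, with all 3 H133W arrays (dark red bars) and without replicate 3 (light red bars); the number of members stands in brackets and the lines mark the share of all 19775 genes (1.44% dashed, 0.971% dotted). Targets of ATF4 stand highest, at 14 of 41, and lists from sirtuins down to the ER chaperones have no bar. The lists were chosen with the study's and earlier results of these data known, so the shares are not independent of those results.

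Inflammatory genes are the question behind the use of TNFα, and they were called in both directions. TNFα raised 167 genes (0.845%) and lowered 66 (0.334%) in untransfected cells, on arrays apart from those compared here. Of the 167, H133W raised 6 (3.59%) and lowered 3 (1.80%) relative to the empty vector, beside 1.44% and 0.283% of all genes, or 6 and 2 without replicate 3, with a median difference of −0.06. In resting cells it raised 15 of the 167 and lowered 0, beside 0.804% and 0.0607% of all genes. The 6 rises were TNFRSF10B-AS1, a noncoding RNA beside a death receptor (1.26), PPP1R15A (0.99), the phospholipase PLA2G4C (0.86), RFX3 (0.69), TLR7 (0.68), which senses single-stranded RNA, and LINC02249 (0.63). Without replicate 3 TLR7 (0.51, adjusted p = 0.106) and LINC02249 (0.55) lost the call, while CXCL8 (0.61) and APLF, a strand break repair protein (0.64), gained it. TLR7 lost it too without empty vector + TNFα replicate 1 (0.71) or 2 (0.58), and LINC02249 without replicate 1 (0.49). The 3 falls were those of TFPI2, an inhibitor of coagulation proteases, CXCL10 and CCL1. Of the 66 lowered genes, H133W lowered 5 (7.58%) and raised 1 (1.52%), or 3 and 1 without replicate 3, with a median of −0.15. The 5 falls were those of SOSTDC1 (−0.72), KIT (−0.68), PHACTR3 (−0.63), LYPD1 (−0.61) and SHISA2 (−0.59), and of them only KIT was called without replicate 3. SOSTDC1, PHACTR3 and LYPD1 also lost the call without empty vector + TNFα replicate 3 (−0.75, −0.60 and −0.60). The rise was that of KLF15, a metabolic zinc finger factor, at 0.77 (0.92 without replicate 3).

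Of 33 chemokines and cytokines 2 rose and 2 fell (6.06% each). CXCL10, the interferon-inducible T cell attractant that TNFα raised by 6.14 in untransfected cells, read 8.70, 8.47 and 7.85 in the H133W cells and 9.17, 9.01 and 9.14 in the empty vector cells. It fell by 0.77 (adjusted p = 0.0134), and replicate 3 was by far the lowest array. It lost the call without replicate 3 (−0.52, adjusted p = 0.0695) and without empty vector + TNFα replicate 1 (−0.73, adjusted p = 0.0581) or 3 (−0.75, adjusted p = 0.052). CCL1, a chemokine of monocytes, fell by 0.62 (−0.65 without replicate 3) and lost the call without H133W + TNFα replicate 2 (−0.57) and without empty vector + TNFα replicate 2 (−0.64) or 3 (−0.50).

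IL11, a gp130 cytokine, and LIF, a relative of it, both rose by 0.59. IL11 was called at 0.70 without replicate 3 but not without H133W + TNFα replicate 1 (0.46) or without any single empty vector + TNFα array (0.62, 0.51 and 0.64 without replicates 1, 2 and 3). LIF lost the call without replicate 3 (0.35) and without empty vector + TNFα replicate 1 (0.49). CCL2 (MCP1), the monocyte attractant, read 9.14, 8.85 and 8.72 against 9.35, 9.46 and 9.46. Its difference of −0.52 missed the threshold (adjusted p = 0.0615; 95% interval −0.85 to −0.19), and it was −0.43 without replicate 3 and −0.64, then called, without H133W + TNFα replicate 1. CXCL8, the neutrophil attractant, differed by 0.52 (adjusted p = 0.0078), and by 0.61 without replicate 3, then called.

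VCAM1, the endothelial adhesion receptor that TNFα raised by 4.15 in untransfected cells, was nearer to the empty vector cells on replicate 3 than on the others. It read 6.24, 6.21 and 7.05 in the H133W cells against 7.25, 7.01 and 7.18, so only replicate 3 overlapped the empty vector arrays. The difference was −0.65 (adjusted p = 0.0547) with all arrays and −0.92 (adjusted p = 0.00267) without replicate 3. It was also called with the arrays quantile normalized (−0.65, adjusted p = 0.0493) and without dim probe sets. Of 17 adhesion molecules 0 were called with all arrays by limma or the plain linear model on their brightest probe sets, and 2 were higher and 6 lower at an unadjusted p under 0.05. ICAM1, the adhesion receptor for leukocyte integrins, rose on another of its probe sets, by 0.93 with all arrays and 0.74 without replicate 3, both called, while its brightest differed by 0.45 (adjusted p = 0.115) and the remaining one by −0.00. TNF itself read 8.68, 8.43 and 7.98 against 8.4, 8.51 and 8.36, a difference of −0.06 (adjusted p = 0.911), and H133W raised it by 1.06 at rest. These effects differed by −1.12, which did not pass as an interaction (adjusted p = 0.567).

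Of 28 NFκB subunits, inhibitors and feedback genes 0 were called by either model, and 7 were higher and 2 lower at an unadjusted p under 0.05. MAP3K14 (NIK), the kinase of the noncanonical pathway, differed by 0.49 (adjusted p = 0.0188) and OPTN, a ubiquitin reader of the pathway, by 0.36. Of 38 interferon-stimulated genes 1 rose (2.63%, beside 1.44% of all genes), the antiviral TRIM22 (0.62). It lost the call without replicate 3 (0.46) and without empty vector + TNFα replicate 2 (0.54). On dimmer probe sets ISG20, an antiviral exonuclease, rose by 0.79 (0.64) and SAMD9 fell by 0.71, the latter losing the call without replicate 3 (−0.41). Of 32 immediate early genes 4 (12.5%) rose and 1 (3.1%) fell, beside 1.44% and 0.283% of all genes. Without replicate 3, 2 rose and 1 fell. DUSP8, a MAP kinase phosphatase, read 8.20, 8.09 and 7.77 against 7.06, 7.06 and 7.11 and rose by 0.95 (1.08 without replicate 3). EGR1, a growth factor-induced zinc finger, read 11.58, 11.57 and 11.61 against 10.95, 10.86 and 11.03 and rose by 0.64 (0.63). SOCS3, a brake on cytokine receptors, rose by 0.72 and FOSB, an AP-1 subunit, by 0.67, and both lost the call without replicate 3 (0.54 and 0.56), as did FOSB without empty vector + TNFα replicate 2 (0.57).

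Of the 12 largest falls among named genes, 1 probe set each, 11 lost their calls without replicate 3. PANX1, a membrane channel for ATP, read 6.29, 6.06 and 4.43 against 6.68, 6.70 and 6.77, TAF9B, a subunit of general transcription complexes, read 6.18, 5.94 and 4.48 against 6.55, 6.60 and 6.67, and EPHA4, an ephrin receptor, read 7.03, 7.18 and 5.74 against 7.75, 7.72 and 7.54. In each, replicate 3 lay far below the other H133W arrays, which themselves lay below the empty vector arrays. The differences of −1.12, −1.07 and −1.02 became −0.54, −0.55 and −0.56 without replicate 3. TFPI2, AMER1, NRP2, ARHGAP29, MAT2A, TRPA1, SOX21-AS1 and ATOH7 likewise fell by 0.91 to 0.99 with all arrays and lost their calls without replicate 3, at −0.44 to −0.59. Each of these 11 also lost its call when 1 of the empty vector + TNFα arrays was left out, as PANX1 did without replicate 1 (−1.14, adjusted p = 0.1), 2 (−1.13) or 3 (−1.10). The brightest probe sets of PANX1, TAF9B, EPHA4 and MAT2A, which makes S-adenosylmethionine, differed by −0.23, −0.11, −0.10 and −0.06.

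TLR3, the endosomal sensor of double-stranded RNA, was alone among the 12 in being called without replicate 3. It read 4.55, 4.41 and 4.83 against 5.52, 5.46 and 5.67 and fell by 0.96 (adjusted p = 0.00147), and here replicate 3 was the H133W array nearest to the empty vector arrays. Without it the difference was −1.07 (adjusted p = 0.00125), and TLR3 fell in resting cells too, by 0.73. Its other probe sets differed by −0.38 and 0.01. PDGFRA, a receptor for platelet-derived growth factor, read 3.41, 2.80 and 2.76 against 4.01, 3.75 and 3.78 and fell by 0.86 (−0.74 without replicate 3). All of these levels lie under the log2 value of 5 taken here as dim, and whether they stand above background is not known. PDGFRA lost the call without empty vector + TNFα replicate 1 (−0.77, adjusted p = 0.0507), and its other 3 probe sets differed by −0.08 to −0.01. KIT, the stem cell factor receptor, read 7.48, 7.22 and 7.23 against 8.11, 7.94 and 7.93 and fell by 0.68 (−0.65). These were the only 2 of 45 receptor tyrosine kinases called, with and without replicate 3; with any probe set counted there were 4.

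Other falls called with and without replicate 3 were chosen after that comparison was made. MYC, the growth-promoting transcription factor, read 8.95, 8.69 and 8.86 against 9.45, 9.57 and 9.56 and fell by 0.69 (−0.71 without replicate 3). HK2, the hexokinase of glycolysis, read 4.15, 4.08 and 4.02 against 4.81, 4.73 and 4.94, all under the dim limit of 5, and fell by 0.74 (−0.71). A brighter probe set of HK2 fell by 0.63 (−0.65). RASGEF1A, a RAS exchange factor, fell by 0.87 (−0.73), TLNRD1, a talin rod protein, by 0.78 (−0.67) and IDS, a lysosomal sulfatase, by 0.77 (−0.63). FOLR1, a folate receptor, fell by 0.62 (−0.67) and lost the call without H133W + TNFα replicate 2 (−0.53) or empty vector + TNFα replicate 2 (−0.56). The brightest probe sets of HK2, IDS and TLNRD1 differed by 0.04, −0.09 and −0.09. In resting cells these 6 differed by −0.48 to −0.28, and none was called.

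**Figure D5:**
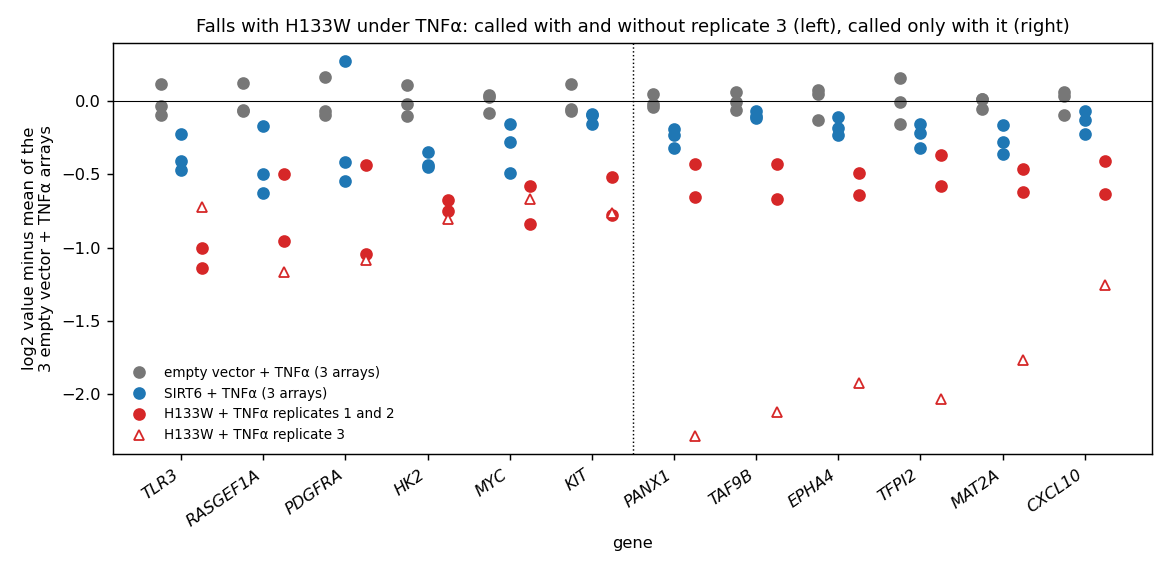
Log2 value minus the mean of the 3 empty vector + TNFα arrays for 12 genes that fell, each point 1 array: empty vector + TNFα (grey), SIRT6 + TNFα (blue), H133W + TNFα replicates 1 and 2 (red) and replicate 3 (open triangle). Left of the dotted line the genes were called with and without replicate 3, and the triangle lies among or near the red points. Right of it, from PANX1 to CXCL10, are genes selected for losing the call without replicate 3. There the triangle lies well below the red points.

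Of 52 WNT pathway genes 2 rose (3.85%) and 3 fell (5.77%), beside 1.44% and 0.283% of all genes, or 2 and 0 without replicate 3. WNT2B, a ligand, read 8.53, 8.39 and 8.39 against 7.62, 7.53 and 7.62 and rose by 0.84 (0.87). SFRP4, a secreted inhibitor, rose by 0.72 (0.81) and lost the call without H133W + TNFα replicate 1 (0.60) or any single empty vector + TNFα array (0.65, 0.72 and 0.78 without replicates 1, 2 and 3). The receptor FZD4 read 8, 7.97 and 7.78 against 8.56, 8.58 and 8.54 and fell by 0.64. Without replicate 3 its difference was −0.58 (adjusted p = 1.65e-05), just under the fold threshold. LGR5, a receptor for R-spondins, and SHISA2, which retains frizzled receptors, fell by 0.63 and 0.59 and lost their calls without replicate 3 (−0.29 and −0.49) and without empty vector + TNFα replicate 1 (−0.64 and −0.56), SHISA2 also with the arrays centred (−0.57) or quantile normalized (−0.58) and LGR5 without empty vector + TNFα replicates 2 (−0.65) or 3 (−0.60).

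Of 45 BMP and TGFβ genes, INHBE rose, and BMP8A (0.64) and BMP5 (−0.72), both bone morphogenetic ligands, were called with all arrays only. Without replicate 3 BMP8A differed by 0.57 and BMP5 by −0.55, and both lost the call without empty vector + TNFα replicate 2 (0.58 and −0.61), BMP8A also without replicate 1 (0.56). Of 35 NOTCH pathway genes 1 rose (2.86%, beside 1.44% of all genes). That was HEY2, a transcriptional target, at 0.93 (0.66 without replicate 3). Of 24 Hedgehog pathway genes 1 rose (4.17%), GLI1, the effector and target of the pathway, at 0.60. GLI1 lost the call without replicate 3 (0.50, adjusted p = 0.0758) or empty vector + TNFα replicate 3 (0.48, adjusted p = 0.0997). A single rise is no result about either pathway. GLI3, which encodes a repressor of the pathway, differed by −0.22 (adjusted p = 0.237) on its brightest probe set. Of 50 lysosomal genes 1 rose (2%) and 2 fell (4%), beside 1.44% and 0.283% of all genes. The rise was that of TFEB, the master regulator of lysosomes, at 0.84 (0.65). CTSO and ARSK, a protease and a sulfatase, fell by 0.70 and 0.64, and lost the call without replicate 3 (−0.53 and −0.44), ARSK also without empty vector + TNFα replicate 2 (−0.58).

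Cell cycle, repair and chromatin genes followed. Of 37 genes of G1-S and replication licensing 3 rose (8.11%, beside 1.44% of all genes). CDT1, which loads the replicative helicase, read 9.78, 9.78 and 9.90 against 9.24, 9.17 and 8.98 and rose by 0.69 (0.65 without replicate 3). ORC1, of the origin recognition complex, rose by 0.66 and LIN37, of the DREAM complex, by 0.59, and both lost the call without replicate 3 (0.36 and 0.56). They lost it too without a single empty vector + TNFα array, LIN37 without replicate 1 (0.58) and ORC1 without replicate 1 (0.65), 2 (0.66) or 3 (0.66). Of 40 G2-M genes 1 fell, CENPA, the centromeric histone, by 0.59. It lost the call without replicate 3 (−0.37), without empty vector + TNFα replicate 2 (−0.58) or 3 (−0.57), and with the arrays centred (−0.57) or quantile normalized (−0.57). Of 36 double-strand break repair genes ZRANB3 (0.68) and HELQ (0.60), both helicases of stalled forks, rose, and neither was called without replicate 3 (0.52 and 0.50), nor HELQ without empty vector + TNFα replicate 2 (0.56).

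Of 52 histone lysine demethylases and methyltransferases 4 rose (7.69%), and 1 without replicate 3, beside 1.44% and 0.971% of all genes. KDM6B, the stress- and cytokine-induced H3K27 demethylase, read 10.41, 10.52 and 10.70 against 9.48, 9.46 and 9.64 and rose by 1.02 (0.94). KDM3A (0.93), KDM6A (0.66) and PHF1 (0.64) had differences of 0.45, 0.57 and 0.48 without replicate 3, and KDM3A also lost its call without any single empty vector + TNFα array (0.90, 0.91 and 0.97 without replicates 1, 2 and 3). Of 18 sirtuins and histone deacetylases 0 were called by limma or the plain linear model, and 5 were higher and 1 lower at an unadjusted p under 0.05. Of 21 p53 targets 0 were called by either model, and 8 were higher and 2 lower at an unadjusted p under 0.05. Over all probe sets 11167 of 54675 lay under that level, both directions together, and the share by direction is not given here. PLK3, a stress kinase, had the largest difference there, at 0.50, and was called without H133W + TNFα replicate 1 (0.59).

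Of 34 glycolysis and HIF1 targets, the genes for which SIRT6 is best known in metabolism, 2 rose (5.88%) and 1 fell (2.94%). Of all genes 1.44% rose and 0.283% fell. VEGFA, the endothelial growth factor, read 10.69, 10.64 and 10.59 against 10.09, 9.96 and 10.04 on its brightest probe set and rose by 0.61 (0.64 without replicate 3), though not without empty vector + TNFα replicate 2 (0.58). Its 3 other probe sets differed by 0.17 to 0.34 and were not called. PKLR, a pyruvate kinase, rose by 0.60 and CA12, a carbonic anhydrase, fell by 0.59, and both lost the call without replicate 3 (0.56 and −0.55), PKLR without empty vector + TNFα replicate 1 (0.53) and CA12 without replicate 3 of those cells (−0.57) or with the arrays centred (−0.58). Without replicate 3, 1 rose and 1 fell, the fall being that of ALDOC, an aldolase, which differed by −0.44 (adjusted p = 0.0576) with all arrays and by −0.59 (adjusted p = 0.0102) without replicate 3, and was also lower in resting cells (−0.64, called). HK2 fell on probe sets other than its brightest one and is not in this count. Of 23 small MAF and NRF2 genes MAFF alone was called on the brightest probe set, and MAFG, another small MAF, rose by 0.63 on its other probe set, which lost the call without replicate 3 (0.57). CD24, a surface glycoprotein that the study names, has 6 probe sets, of which 1 was called, with a rise of 0.78 (0.68 without replicate 3) that lost the call without empty vector + TNFα replicate 2 (0.67, adjusted p = 0.0517). The 5 others differed by 0.08 to 0.46.

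The same H133W arrays were set against cells given wild type SIRT6 with TNFα. H133W was higher in 152 probe sets (0.278%) and lower in 30 (0.0549%), or 98 and 13 without replicate 3. This comparison shares its H133W arrays with the one above, so its calls are not independent of it. HSPA6 was higher with the mutant than with the wild type by 3.60 ± 0.15 (SE), CRYAB by 2.75, INHBE by 1.88, INSM2 by 1.47 and SERAC1, a mitochondrial lipid remodelling protein, by 1.40 on the dimmer of its probe sets. Without replicate 3 all 5 were called. Against the empty vector, wild type SIRT6 with TNFα changed HSPA6 by 0.49, CRYAB by 0.66 and INHBE by 0.43. H2AC6 was higher with the mutant by 1.01, PHF21B by 1.32, CTH by 0.71 and DNAJB1 by 0.61.

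Some leading rises did not differ between mutant and wild type at the threshold. MAFF differed by 0.41 (95% interval 0.10 to 0.72, adjusted p = 0.185), having risen by 1.47 with wild type SIRT6. CHAC1 differed by 0.40 (adjusted p = 0.134) and OVGP1 by 0.59 (adjusted p = 0.119). A miss of the threshold does not show that the proteins act alike. The largest values lower with the mutant were those of SULF1, a heparan sulfatase (−0.96), CDC25C, the mitotic phosphatase (−0.80), IDS (−0.78), MRO, a nucleolar protein (−0.74), and BTN3A2, a butyrophilin (−0.74). Of these only IDS was called without replicate 3.

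Whether TNFα changed the effect of H133W was tested as an interaction, the difference with TNFα minus the difference without it. By limma 0 probe sets were higher (0%) and 2 lower (0.00366%), those of IER3 and CALCB, with 4623 at an unadjusted p under 0.05 and 2 called by the plain linear model. IER3, an NFκB-induced survival gene, read 11.79, 11.67 and 11.67 in the H133W cells with TNFα and 11.85, 11.84 and 11.89 in the empty vector cells with TNFα. Without TNFα it read 9.60, 9.53 and 9.57 against 8.92, 8.93 and 9.11. The mutant thus went with a higher level at rest (0.58) and a difference of −0.15 (adjusted p = 0.251) under TNFα, and the interaction was −0.73 (adjusted p = 0.0192). CALCB, a calcitonin gene-related peptide, read 10.56, 10.45 and 10.46 against 10.53, 10.52 and 10.52 with TNFα and differed by 0.59 at rest and by −0.03 with TNFα, an interaction of −0.63 (adjusted p = 0.0192). Without replicate 3 the adjusted p of both was 0.0618 by limma, with 0 calls, 2263 probe sets at an unadjusted p under 0.05 and 2 calls by the plain linear model. Of the 12 arrays of these conditions, each left out in turn, 9 left 0 calls: H133W + TNFα replicates 2 and 3, all 3 empty vector + TNFα arrays, and replicates 1 and 2 of both resting conditions. Leaving out H133W replicate 3 left 1 call and each of the remaining 2 arrays left 2 calls.

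Of 11 blood, 12 fibroblast and 10 endothelial markers 0 were called by limma or the plain linear model on their brightest probe sets, with 1 of each list at an unadjusted p under 0.05, and of 8 markers seen in HEK293 cells 0 were called and 1 was lower at that level. Mean log2 levels ran from 2.06 to 4.66 for the blood, 2.49 to 5.17 for the endothelial, 2.57 to 8.63 for the fibroblast and 4.94 to 12.3 for the HEK293 markers. Among the blood markers LYZ, lysozyme, differed most, at 0.41 (adjusted p = 0.168), with 3.62 on replicate 3 against 2.77 and 2.63 on the other H133W arrays, and it was called at 0.60 (adjusted p = 0.0319) without H133W + TNFα replicate 2, a fit that keeps replicate 3. A probe set annotated to several haemoglobin genes, and so outside the list, was called at 1.06 with all arrays and differed by 0.44 without replicate 3, not called.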

How the data were processed

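Total RNA of HEK293 cells was hybridised to Affymetrix HG-U133 Plus 2.0 arrays, 3 biological replicates for each of 8 conditions. The authors deposited log2 expression values of 54675 probe sets, made by RMA (background correction, quantile normalization and median polish), and these were used without further scaling. The scanner files were not used here. A mean per condition was fitted over all 24 arrays with limma 3.58.1 in R 4.3.3, contrasts were tested with eBayes, with Benjamini-Hochberg adjustment over all probe sets. A call needed a fold over 1.5 at an adjusted p below 0.05. Of the probe sets, 41097 were matched to a single gene, 1801 to several and 11777 to none in the platform annotation, updated through RefSeq. In list counts the probe set with the highest mean over 24 arrays stood for its gene. The genes named are the 12 largest changes per direction, up to 4 called members per list and the 5 largest of other comparisons. Genes the study discusses are also named. The 12 were taken among called single-gene probe sets whose H133W and empty vector arrays did not overlap. ALDOC and genes named for a probe set other than their brightest were added after their values were seen. The comparison and the gene lists were chosen with earlier results of these data, and the study's, known. On simulated data of 54675 probe sets the fit recovered 46 of 50 changes of 1.75-fold and 50 of 50 of 3-fold, and called 5 unchanged probe sets each time. Whether those data held an array like H133W + TNFα replicate 3 is not given here, so this recovery may not carry over. The p-values rest on the spread between replicates that are labelled as biological. Alternatives were array centring, quantile normalization, a replicate block, a plain linear model, array weights, other thresholds and each array left out. Same-numbered H133W and empty vector arrays deviated with r of 0.024, 0.028 and −0.079, so the numbers were not treated as pairs.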

Additional observations from a re-analysis of the deposited data

Results flagged for a closer look

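The effect of H133W differed between stimulated and resting cells, by the interaction test, for a pair of probe sets. For IER3 the effect with TNFα minus that without was −0.73 (adjusted p = 0.0192), from 0.58 at rest to −0.15 with TNFα, and for CALCB it was −0.63 (adjusted p = 0.0192), from 0.59 to −0.03. Neither passed without H133W + TNFα replicate 3 (adjusted p = 0.0618 for both). In all, 9 of the 12 arrays left 0 calls when left out, and only 2 of the 12 left 2 calls.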

How the results depend on the processing

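The 574 rises, 189 falls, 182 calls against wild type SIRT6 and 2 interaction calls depended most on which arrays entered. With 1 array left out they ranged from 415 to 991, 47 to 1191, 83 to 1167 and 0 to 2, lowest for rises and falls without H133W + TNFα replicate 3 and highest without its replicate 1. With only the arrays compared in the fit, 81 rises, 0 falls, 4 calls against SIRT6 and 0 interactions were called. Array weights left 65 falls. Without the 3 arrays of lowest weight, an alternative chosen after seeing the data, 57 falls and 0 interactions were called. Median centring left 1 interaction. Dropping the fold threshold gave 1622 rises, 1248 falls and 628 calls against SIRT6, and a threshold of 2-fold gave 90, 5, 22 and 0. The replicate block gave 558 rises and 175 falls, and of the named genes it ended the calls of PANX1, TAF9B, JDP2, ZNF613 and ZNF77. No called value reversed. Under centring, quantile normalization and the block, 735, 746 and 716 of the 763 calls were kept. Of the 763, 322 rises and 27 falls were also called without replicate 3. The number of arrays per condition limits what could be detected, and the cause of these movements was not tested.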
